A study of Macaca mulatta with 449 samples.

Results

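Samples of 3 neighbouring gyri of the occipital lobe of the rhesus macaque were compared within each animal: the posterior superior occipital gyrus (pSOG) and the inferior occipital gyrus (IOG), whose counts were summed, against the anterior superior occipital gyrus (aSOG). The sub-region numbers in the column names of the gene count table chose the samples, and no measured value was used. They made up 24 of the 408 RNA-seq samples in that count table, with 8 samples of each gyrus and 1 sample of each gyrus from each of 8 animals. The table covers total RNA, after removal of ribosomal RNA, from 51 sub-regions of the brain in the same animals. The series holds further RNA-seq samples outside this table. The animals, called Rhesus 2, 3, 4, 6, 7, 8, 10 and 11 as in the labels, were healthy, came from a single source and received no treatment. Rhesus 2, 3, 7 and 8 were male and Rhesus 4, 6, 10 and 11 were female. Rhesus 4, 7, 8 and 10 were young (3.2 to 5 years) and Rhesus 2, 3, 6 and 11 were mid-aged (9.8 to 10 years). Each sample was a block of 2 to 3 mm3 taken by dissection along gyri, so the labels name gyri and not areas defined by cell architecture, and several visual areas may lie within 1 gyrus. Chromatin accessibility samples of the series were not analysed here.

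The occipital lobe of primates holds the primary visual cortex, which receives the input of the retina through the visual thalamus, and the higher visual areas that it projects to. The primary visual cortex is known for a thick thalamus-receiving layer, dense parvalbumin interneurons and a set of genes expressed far more strongly there than in association cortex, among them OSTN, which encodes the secreted peptide osteocrin and is switched on by sensory activity in primate neurons, and FSTL1, a secreted follistatin-like glycoprotein. Association areas are known for higher levels of other genes, such as the axon guidance ligand SLIT1 and several serotonin receptors. Along the lobe from its posterior pole forwards, expression therefore changes with the visual areas, and OSTN and FSTL1 served here as the markers of the posterior end.

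The gene counts of the 24 samples totalled 8694421 to 17527846, and the median total was 10176652 in aSOG, 10030997 in pSOG and 10333778 in IOG. Before the gene results, 2 features of the samples need to be given. The first is the leading axis of variation among the 224 samples of the other 28 cortical sub-regions, with the means of animals and sub-regions removed. It held 25.8% of their variance, and high scores went with high GABRB2 and RAB3C. The pair of gyri scored lower than aSOG by 17.2 ± 19.5 (SD, n = 8 animals, arbitrary units), and lower in 7 of 8 animals, so the position along this axis moved with the comparison. Its part in the single results was not tested, except where the axis score was added to the fit as a covariate, a choice made after the data were seen. The second is that animals weighed unequally. Rhesus 3 was the exception on the axis (11.8 higher in the pair), and across the genes tested its difference between gyri had a correlation of -0.20 with the mean difference of the other 7 animals, against 0.27 to 0.54 for every other animal. The pSOG sample of Rhesus 10 had the lowest axis score of the pSOG samples (-64.0, next -41.5) and the lowest summed level of 4 heat-shock genes (1718 CPM against 2520 to 4649 in the other pSOG samples). Levels are given in CPM, the usual count scaled to the size of the library, after normalization by the trimmed mean of M-values (TMM).

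The posterior and inferior gyri differed from the anterior gyrus in 323 of 15009 genes tested (2.15%), with edgeR's quasi-likelihood test, the animal as a block and a Benjamini-Hochberg adjusted p (FDR) under 0.05. Of these, 113 genes (0.753% of those tested) were higher and 210 genes (1.4%) were lower in the pair. Most differences were small: the median absolute log2 fold change (log2FC) of the called genes was 0.44, with a range of 0.21 to 1.68, and only 4 higher and 6 lower genes passed a 2-fold change as well. In 184 of the 323 called genes, the direction was the same in all 8 animals, which was so for 598 of all genes tested. An unadjusted p under 0.05 was found for 3401 genes. In bulk tissue, fewer cells of a type and less RNA per cell cannot be told apart. The p-values weigh the mean difference within animals against the spread of those differences over the 8 animals.

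The count of called genes depended on the animals. Without Rhesus 3 it rose to 2168 (975 higher and 1193 lower), with all 323 genes called again in the same direction. Without Rhesus 2, 6, 7, 8, 10 or 11 it fell to 124, 167, 71, 44, 80 and 45, and without Rhesus 4 it was 244. With the axis score as a covariate 57 genes were called (27 higher and 30 lower), of which 42 were among the 323, and with the same covariate without Rhesus 3 there were 652 (323 higher and 329 lower), of which 157 were among the 323. None of the 323 genes changed direction in any of these fits. Of the 53 called genes named here, 10 were called in every one of the 8 fits that left out 1 animal. They were HTR2C, PVALB, ETV1, HOMER3, PLK5, TAGLN, RXFP1, MCHR2, GABRG1 and DCC. Another 22 were called in at most 2 of the 8. Among these were GABRA2, GABRA3, GABRB1, GABRD, GRIA1, KCNQ5, CHRNA4, FEZF2, LAMP5 and ROBO1. So were EPHA4, PLXNC1, CDH8, CDH10, CNP, ERMN, CARTPT, TRABD2A, MEOX1, TRIM54 and SAP25.

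**Figure D1:**
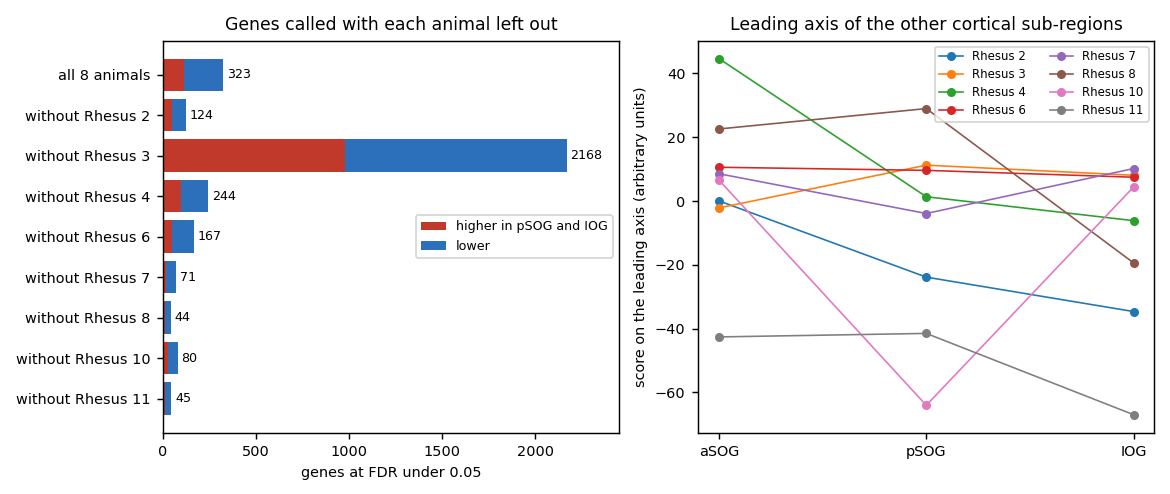
Left, number of genes called at FDR under 0.05 between the sum of pSOG and IOG and aSOG (red higher, blue lower) with all 8 animals (323) and with each animal left out, from 44 without Rhesus 8 to 2168 without Rhesus 3. Right, score of each of the 24 samples on the leading axis of the other cortical sub-regions (arbitrary units), 1 line per animal; the mean of pSOG and IOG lay below aSOG in 7 of 8 animals, with Rhesus 3 above.

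No gene separated the 2 gyri of the pair by the same test. Between pSOG and IOG, 0 of 14240 genes (0%) were called with edgeR, 338 had an unadjusted p under 0.05, and DESeq2 also called 0. HTR2C, for instance, had a log2FC of -0.75 (SE 0.32) in pSOG against IOG, and a count of 0 does not show that the gyri are alike. Against aSOG, pSOG alone differed in 75 of 14172 genes (0.529%, 28 higher and 47 lower), and IOG alone in 10 of 14215 genes (0.0703%, 1 higher and 9 lower). These last 2 comparisons share the aSOG samples, and the difference between their counts was not tested. The called genes still leaned towards pSOG: of the 112 called higher genes that the fit of pSOG against IOG tested, 73 had a positive log2FC (pSOG above IOG), and of 205 called lower genes 142 had a negative one, beside 50.5% positive among all genes. The median difference was small, 0.05 for the higher and -0.04 for the lower genes on the log2 scale.

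The markers of the posterior end pointed the same way with unequal certainty. OSTN had 11.8 to 52.7 CPM in aSOG (median 33.1), 18.8 to 141 CPM in pSOG (median 72.4) and 26.2 to 85.5 CPM in IOG (median 45.5). The ranges overlapped, and the pair was above aSOG in 6 of 8 animals, the exceptions being Rhesus 2 and 10. Its log2FC of 0.75 (SE 0.21) did not pass the threshold (FDR = 0.0704, edgeR), while 1.23 (SE 0.22) with the axis score as covariate did (FDR = 0.0268). FSTL1 had 213 to 370 CPM in aSOG (median 280), 308 to 439 CPM in pSOG (median 357) and 206 to 395 CPM in IOG (median 346). It was higher in the pair in 7 of 8 animals and was called (log2FC 0.28, SE 0.06, FDR = 0.0304), although with the axis score as covariate it was not (0.35, SE 0.08, FDR = 0.0687). FSTL1 was not called without Rhesus 7, 8, 10 or 11 (FDR = 0.0872, 0.128, 0.0620 and 0.0945, edgeR), and OSTN was called without Rhesus 2 or 3 (FDR = 0.0436 and 0.0456). Of 7 genes listed as enriched in primate primary visual cortex, FSTL1 was the 1 called, beside 0.753% of all genes called higher. The median log2FC of the list was 0.10, beside -0.00062 for all genes tested. The serotonin receptors HTR1B (0.45, FDR = 0.281) and HTR2A (0.10, FDR = 0.433) of that list, named after their values were seen, did not pass.

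**Figure D2:**
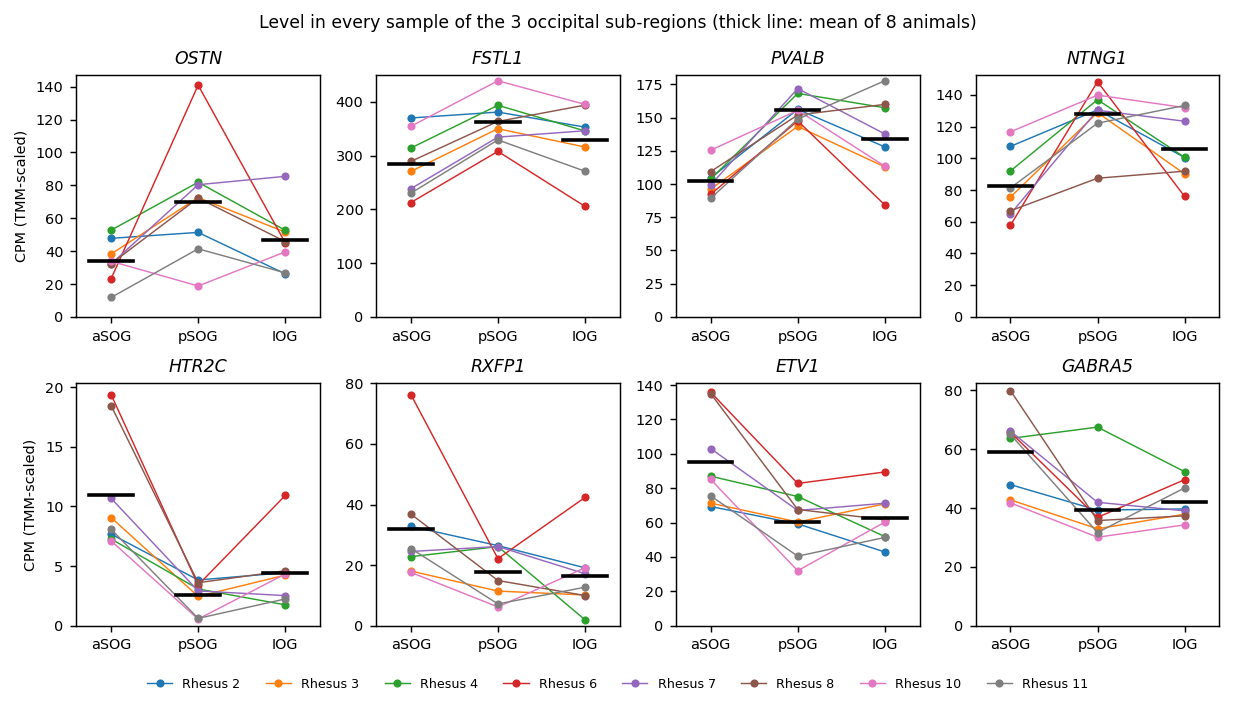
Level in CPM of 8 genes in every sample, with aSOG, pSOG and IOG along the axis, 1 coloured line per animal and a thick black line for the mean of 8 animals. PVALB had 143 CPM or more in all pSOG samples and at most 125 CPM in aSOG, and HTR2C had at most 3.83 CPM in pSOG and at least 7.11 CPM in aSOG, whereas OSTN overlapped between the gyri.

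Genes higher in the posterior and inferior gyri included PVALB and NTNG1. PVALB, the calcium-binding protein that marks fast-spiking interneurons, had 89.3 to 125 CPM in aSOG (median 102), 143 to 172 CPM in pSOG (median 154) and 84.3 to 178 CPM in IOG (median 133). All pSOG samples lay above all aSOG samples, while IOG overlapped both. The pair was higher in 8 of 8 animals (log2FC 0.48, SE 0.07, FDR = 0.0051), and PVALB was also called with the axis covariate (0.51, SE 0.10, FDR = 0.0338). NTNG1, which encodes netrin-G1, a membrane protein of thalamocortical axons, had 57.8 to 117 CPM in aSOG (median 78.4), 87.5 to 148 CPM in pSOG (median 130) and 76.0 to 133 CPM in IOG (median 101). It too was higher in 8 of 8 animals (log2FC 0.51, SE 0.09, FDR = 0.0144), and was not called without Rhesus 11 (0.50, FDR = 0.0669). GABRD, the delta subunit of extrasynaptic GABA-A receptors, rose by less, with a log2FC of 0.24 (SE 0.06, FDR = 0.048) and 8 of 8 animals in that direction.

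The 10 genes with the largest increase among those higher in all 8 animals included PLK5, MATN4, CRYGS, KCNH8, HOMER3, TRIM54, TAGLN, KLF2 and SAP25. PLK5, a polo-like kinase expressed in neurons, changed most, with a mean of 12.8 CPM in the pair and 6.03 CPM in aSOG (log2FC 1.14, SE 0.18, FDR = 0.00795). Its pSOG samples had 11.1 CPM or more and its aSOG samples 10.5 CPM or less, but IOG reached down to 6.86 CPM. MATN4, a matrilin of the extracellular matrix, had a mean of 14.04 CPM against 7.39 CPM (log2FC 0.98, SE 0.18). Next to these stood 2 genes that act at the synapse and the membrane. KCNH8, a voltage-gated potassium channel subunit, had 28.3 CPM against 16.6 CPM (log2FC 0.78, SE 0.17). HOMER3, a postsynaptic scaffold that binds metabotropic glutamate receptors, had 16.5 CPM against 9.60 CPM (log2FC 0.77, SE 0.11, FDR = 0.00452). KCNH8 and HOMER3 stayed called with the axis score as covariate, and PLK5 (1.07, SE 0.25) and MATN4 (1.12, SE 0.24) did not, with log2FCs near those without it. All 4 were called with that covariate without Rhesus 3.

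TAGLN, an actin-binding protein of smooth muscle, and KLF2, a transcription factor of endothelium under flow, are genes of vessels. TAGLN had 17.4 CPM ± 3.58 (SD) in aSOG, 28.4 ± 15.0 in pSOG and 30.7 ± 11.0 in IOG (n = 8 each), with a log2FC of 0.70 (SE 0.12, FDR = 0.00842). KLF2 had a log2FC of 0.68 (SE 0.12, FDR = 0.0125). The pSOG sample of Rhesus 10 was the highest of its gyrus for both, at 62.5 and 15.4 CPM. Of 5 endothelial markers tested, edgeR called 0 (3 had an unadjusted p under 0.05, all higher) and DESeq2 called 1 higher, with a median log2FC of 0.22 (all genes -0.00062) and VWF, the von Willebrand factor, named after its values were seen, at 0.50 (SE 0.14, FDR = 0.0725). Their summed level was 139 to 259 CPM in aSOG and 169 to 261 CPM in the mean of the pair, higher in 6 of 8 animals. Of 5 measured meningeal and fibroblast markers 4 were tested, of which edgeR called 0 (3 had an unadjusted p under 0.05, all higher) and DESeq2 called 1 higher. Their median log2FC was 0.46, and COL1A2, a chain of fibrillar collagen named after its values were seen, was at 1.45 (SE 0.36, FDR = 0.0507). The summed level of the 5 was 20.8 to 58.4 CPM in aSOG and 21.5 to 68.3 CPM in the pair, higher in 7 of 8 animals. Over all genes, DESeq2 called 358 higher and 455 lower. The part of vessels or meninges in the TAGLN and KLF2 results was not tested. ZIC1, a zinc-finger transcription factor of cerebellar granule cells and of meninges, was also called (log2FC 0.76, SE 0.16, FDR = 0.0276). It was the 1 called of the 6 cerebellar markers tested, beside 0.753% of all genes called higher.

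Among the called genes named here, the 3 largest changes were decreases, in HTR2C, MCHR2 and THEMIS. HTR2C encodes the serotonin 2C receptor. It had 7.11 to 19.4 CPM in aSOG (median 8.58), 0.553 to 3.83 CPM in pSOG (median 3.00) and 1.75 to 10.9 CPM in IOG (median 4.28). No pSOG sample reached the lowest aSOG sample, and in IOG only Rhesus 6 (10.9 CPM) entered the aSOG range. HTR2C was lower in the pair in 8 of 8 animals, which the rule that chose the largest decreases requires. Its log2FC was -1.68 (SE 0.15, FDR = 0.000163, edgeR), and it was 1 of the genes called for IOG alone (-1.37, SE 0.18, FDR = 0.027). With the axis score as covariate it was -1.76 (SE 0.20, FDR = 0.00281). HTR1A, the serotonin 1A receptor, was the other of 8 serotonin receptors tested that was called, beside 1.4% of all genes called lower. HTR1A had 0.569 CPM in the pair and 1.21 CPM in aSOG (log2FC -1.11, SE 0.25, FDR = 0.0377). The levels of HTR1A, MCHR2, THEMIS, CARTPT, TEX15, TRABD2A and MEOX1 were all below 4 CPM in both groups on average, so single reads weigh in them.

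MCHR2, a receptor of melanin-concentrating hormone, had a log2FC of -1.25 (SE 0.19), and CARTPT, which encodes the CART neuropeptides, -1.05 (SE 0.25). RXFP1, the relaxin receptor, had 17.6 to 76.3 CPM in aSOG (median 24.98), 6.19 to 26.4 CPM in pSOG (median 18.5) and 1.95 to 42.3 CPM in IOG (median 14.9). The groups overlapped. The pair was lower in 8 of 8 animals (log2FC -0.87, SE 0.14, FDR = 0.00777), which the rule for the 10 largest decreases requires. The highest aSOG and IOG samples were both of Rhesus 6. THEMIS (-1.20, SE 0.20) is known from T cell development and from a class of deep-layer cortical neurons. The other genes of the 10 with the largest decrease were TEX15 (-0.92, SE 0.17), TRABD2A, an inhibitor of Wnt ligands (-0.80, SE 0.19), MEPE, a secreted matrix phosphoglycoprotein (-0.79, SE 0.15), and the homeobox gene MEOX1 (-0.79, SE 0.18). CHRNA4, the nicotinic acetylcholine receptor subunit alpha 4, was the 1 of 10 cholinergic receptors tested that edgeR called (-0.74, SE 0.18, FDR = 0.0483). Of all genes, 1.4% were called lower. DESeq2 called 2 of the 10 higher and 2 lower, beside 358 and 455 of all genes. The subunit alpha 3, CHRNA3, named after its values were seen, was higher in 8 of 8 animals (0.79, SE 0.20, FDR = 0.0538).

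**Figure D3:**
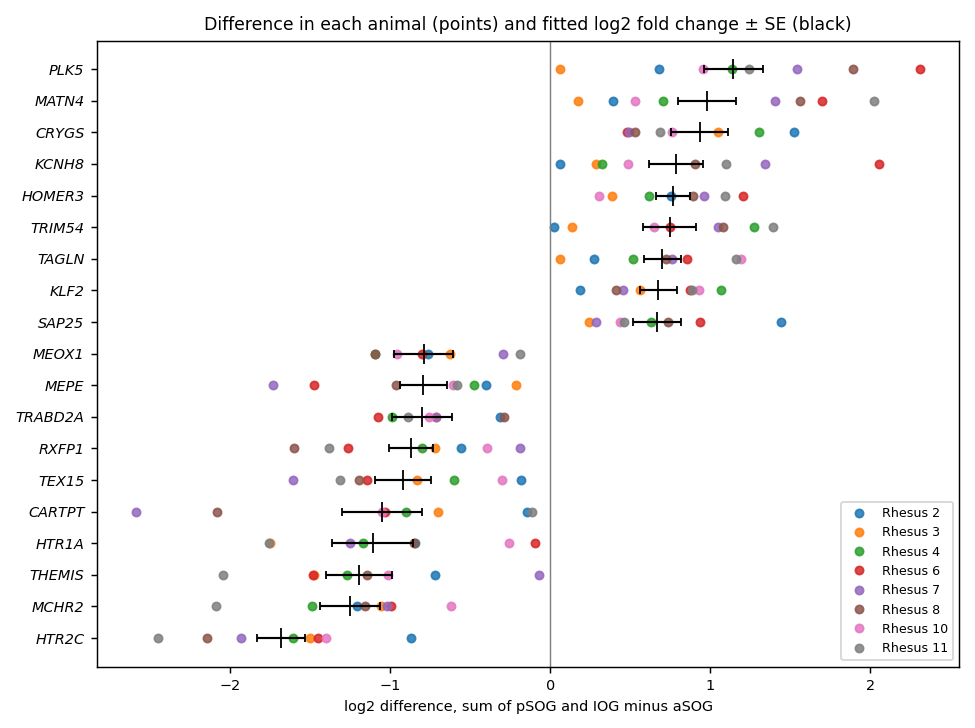
log2 difference between the sum of pSOG and IOG and aSOG in each of the 8 animals (coloured points) for 9 of the 10 genes with the largest increase and the 10 with the largest decrease, with the fitted log2FC ± SE in black. By the rule that chose these genes all points of a gene lie on 1 side of 0; HTR2C has its points from -2.45 to -0.87.

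Of 13 layer-related genes of excitatory neurons tested, 4 fell and none rose, beside 1.4% of all genes lower and 0.753% higher, with a median log2FC of -0.35 (all genes -0.00062). The 4 were RXFP1 and the transcription factors ETV1, FOXP2 and FEZF2, which are known from neurons of the deep layers. ETV1, a transcription factor of layer 5, had 69.3 to 136 CPM in aSOG (median 86.1), 31.96 to 82.8 CPM in pSOG (median 63.7) and 42.9 to 89.4 CPM in IOG (median 61.0). It was lower in the pair in 8 of 8 animals (log2FC -0.63, SE 0.08, FDR = 0.00316) and was called with the axis covariate too (-0.56, SE 0.11, FDR = 0.038). FOXP2, a transcription factor of layer 6, fell by 0.57 on the log2 scale (SE 0.12, FDR = 0.0278), and FEZF2, which specifies projection neurons that leave the cortex, by 0.58 (SE 0.14, FDR = 0.0457), the latter in 6 of 8 animals. With the axis covariate 2 of the 13 genes were lower, beside 30 of all genes tested, and the median was -0.14. With it without Rhesus 3 there were 2 higher and 3 lower (median -0.20), beside 323 and 329 of all genes. CUX2 of the same list, named after its values were seen, had a log2FC of 0.12 (FDR = 0.521).

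Among 13 GABA-A receptor subunits tested, 5 fell and 1 rose, beside 1.4% and 0.753% of all genes, and the median log2FC was -0.32 (all genes -0.00062). GABRA5, the alpha 5 subunit of tonic inhibition, had 41.8 to 79.9 CPM in aSOG (median 64.4), 30.1 to 67.5 CPM in pSOG (median 36.3) and 34.3 to 52.4 CPM in IOG (median 39.4). It was lower in 8 of 8 animals (log2FC -0.54, SE 0.10, FDR = 0.0145), although the pSOG sample of Rhesus 4 alone had 67.5 CPM. GABRG1 (-0.50, SE 0.08), GABRA3 (-0.49, SE 0.11), GABRB1 (-0.45, SE 0.09) and GABRA2 (-0.32, SE 0.07) also fell, and the subunit that rose was GABRD. GABRG1 was called in every fit that left out 1 animal. GABRA3, GABRB1, GABRA2 and GABRD were called in at most 2 of those 8 fits. Another subunit, GABRB2, led the axis that moved with the comparison. With the axis score as covariate the median of the family was 0.02. GABRA5 was the 1 subunit called lower (-0.65, SE 0.12, FDR = 0.0347), beside 30 of all genes tested, and GABRD was not called. Without Rhesus 3, 8 of the 13 were lower and 1 higher, beside 1193 and 975 of all genes. With the covariate as well 2 were lower and 1 higher (median -0.14), beside 329 and 323 of all genes.

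Of 18 interneuron genes tested 1 rose and 2 fell, beside 0.753% and 1.4% of all genes, and the median log2FC was -0.05. PVALB rose, and LAMP5 and RELN fell, both of which mark neurogliaform and other superficial interneurons. LAMP5 had a mean of 18.7 CPM in the pair and 25.8 CPM in aSOG (log2FC -0.49, SE 0.11, FDR = 0.0306), and RELN, the secreted protein reelin, 66.3 and 86.0 CPM (-0.40, SE 0.07, FDR = 0.0143), each lower in 7 of 8 animals. With the axis covariate PVALB was called and LAMP5 (-0.45, SE 0.14) and RELN (-0.28, SE 0.08) were not, while without Rhesus 3 under the same covariate both were (-0.79 and -0.42). For GAD1 and GAD2, the enzymes of GABA synthesis shared by all these neurons, the log2FCs were 0.04 (SE 0.06) and 0.01 (SE 0.06), with FDRs of 0.704 and 0.905. These 2 were named after their values were seen.

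Of 45 axon guidance genes tested, 1 rose (NTNG1, above) and 6 fell, beside 0.753% and 1.4% of all genes, with a median log2FC of -0.17. SLIT1, a repellent ligand known for high levels in association cortex, had 8.25 to 27.3 CPM in aSOG (median 18.9), 3.54 to 16.6 CPM in pSOG (median 10.2) and 4.52 to 28.8 CPM in IOG (median 9.29). It was lower in 8 of 8 animals (log2FC -0.76, SE 0.14, FDR = 0.0175). The other SLIT ligand called, SLIT2, fell by 0.36 (SE 0.07), and ROBO1, a receptor of both, by 0.38 (SE 0.08). SLIT3, ROBO2 and ROBO3, named after their values were seen, were not called. DCC, the netrin receptor, fell by 0.75 (SE 0.12, FDR = 0.00805), from a median of 14.5 CPM in aSOG to 7.60 in pSOG and 6.78 in IOG. EPHA4, an ephrin receptor (-0.50, SE 0.12), and PLXNC1, a semaphorin receptor (-0.29, SE 0.07), were the remaining 2. Of 23 cadherins tested, 3 adhesion genes fell (beside 1.4% of all genes) and none rose, with a median of -0.18: PCDH19 (-0.58, SE 0.10), CDH8 (-0.34, SE 0.08) and CDH10 (-0.26, SE 0.06). With the axis covariate 1 guidance gene was called, higher, and no cadherin, beside 27 higher and 30 lower of all genes tested. With that covariate without Rhesus 3 there were 2 guidance genes higher and 4 lower and 6 cadherins lower. That fit called 323 higher and 329 lower genes in all.

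Calls among glutamate receptors and voltage-gated channels were all decreases in the edgeR fit, beside 1.4% of all genes tested called lower. GRIA1, a subunit of AMPA receptors (-0.31, SE 0.07), and GRM8, a presynaptic metabotropic receptor (-0.59, SE 0.11), were the 2 of 22 glutamate receptors called, and the median of the 22 was -0.16. KCNQ5 (-0.25, SE 0.06) and KCND2 (-0.38, SE 0.07), voltage-gated potassium channels, were the 2 of 21 voltage-gated channel subunits called, and the median of the 21 was -0.22. With the axis covariate 0 members of either family were called, beside 27 higher and 30 lower of all genes (medians -0.01 and -0.03). With it without Rhesus 3, 3 glutamate receptors were higher and 3 lower, and 1 channel subunit was higher and 4 lower. That fit called 323 higher and 329 lower genes in all, and the family medians were -0.05 and 0.03. DESeq2 called 1 glutamate receptor higher and 4 lower, and 0 channel subunits higher and 3 lower, beside 358 and 455 of all genes. No gene was called at FDR under 0.05 by edgeR among 17 activity-dependent genes (median log2FC -0.12), 9 patterning factors (0.01), 5 neurofilament and fast-axon genes (-0.24), 5 perineuronal net genes (0.05), 8 pan-neuronal genes (-0.13) or 4 heat-shock genes (-0.03). An unadjusted p under 0.05 was found for 7, 4, 3, 0, 4 and 1 genes of these lists in turn, beside 3401 of all 15009 genes tested. DESeq2 called 1, 2, 2, 0, 1 and 0, beside 813 of all genes.

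Markers of oligodendrocytes, the myelinating cells, were lower in the pair. Of 7 tested, 4 fell (beside 1.4% of all genes) and none rose, among them CNP (-0.29, SE 0.07), UGT8 (-0.34, SE 0.07) and ERMN (-0.40, SE 0.08), and the median was -0.29. Their summed level ran from 3609 to 5979 CPM in aSOG (median 4655) and from 3209 to 5045 CPM in the mean of pSOG and IOG (median 3788), and it was lower in the pair in 8 of 8 animals. The mean difference of the sum was -0.24 ± 0.10 on the log2 scale (SD, n = 8), so myelin genes moved with the comparison as a whole. With the mean log2 CPM of these markers as a covariate, edgeR called 0 genes, with 313 at an unadjusted p under 0.05. Under that covariate 62 of the 323 genes changed direction. The markers were lower in the pair in every animal, so their level and the gyrus cannot be told apart well here. None of 6 astrocyte, 4 microglia or 3 oligodendrocyte precursor markers was called by edgeR or DESeq2, and 0 had an unadjusted p under 0.05 in edgeR. Blood markers summed to at most 0.393 CPM in any of the 24 samples, and choroid plexus markers to at most 12.3 CPM. Pan-neuronal genes summed to 12809 CPM or more in every sample.

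The occipital module, a set of 230 genes that the study itself chose on these samples and that is therefore not independent evidence of its direction, had 223 members tested. Of these 31 were higher and 3 lower in the pair, beside 0.753% and 1.4% of all genes tested. The share called lower was near that of all genes. The median log2FC was 0.20 (all genes -0.00062). The 3 lower members, named after their values were seen, were SVOP, VXN and RASGRF2. The summed level of the 230 genes was higher in the pair in 8 of 8 animals. It was 10442 to 13603 CPM in aSOG, 13120 to 15164 CPM in pSOG and 11200 to 14327 CPM in IOG. With the axis covariate 18 members were higher and 1 lower, beside 27 and 30 of all genes tested, and the median was 0.23.

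Levels over all 31 cortical sub-regions showed where the 3 gyri lie. They give means over 8 animals and no test. OSTN was highest in pSOG (68.0 CPM ± 34.5, SD), IOG (45.8 ± 18.5) and aSOG (33.5 ± 12.8), followed by the cuneus gyrus (24.97 ± 16.98) and the superior postcentral gyrus (15.6 ± 8.22), and it was lowest in the temporal polar gyrus (0.961 ± 0.433). Each of these first 5 overlapped its neighbour in the order within their SDs. PVALB had the same order of the 3 gyri, with 151 ± 9.93, 131 ± 30.0 and 101 ± 11.0 CPM, down to 5.61 ± 2.42 in the temporal polar gyrus. FSTL1, NTNG1, GABRD, PLK5, MATN4, KCNH8 and HOMER3 likewise had pSOG, IOG and aSOG as their highest 3 of 31. CRYGS, KLF2 and ZIC1 did not, since aSOG was the lowest of all 31 for each of them. TAGLN and SAP25 had aSOG at ranks 30 and 27, pSOG at ranks 9 and 12 and IOG at ranks 5 and 3. TAGLN was highest in the lingual gyrus (49.3 CPM ± 41.2). TRIM54 had pSOG and IOG at ranks 1 and 2 and aSOG at rank 9.

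Many of the lower genes had the opposite order. SLIT1 was lowest in pSOG (9.75 CPM ± 5.09), IOG (11.7) and aSOG (17.7) and highest in the temporal polar gyrus (128 ± 40.5). GABRA3, GABRA5, ROBO1, SLIT2, LAMP5, GRIA1, PCDH19, CDH10, CHRNA4, MEPE and HTR1A had the same 3 gyri last, in the same order. HTR2C was different: aSOG ranked 9 of 31 (10.8 CPM ± 5.02), while IOG ranked 28 and pSOG 31. The highest level of HTR2C was in the fusiform gyrus (15.8 ± 7.12). RXFP1 fell from rank 10 in aSOG to ranks 26 and 27, FOXP2 from 4 to 14 and 16, DCC from 7 to 29 and 28, and EPHA4 from 8 to 28 and 31. THEMIS was highest of all 31 in aSOG. These genes were singled out for this pattern after their ranks were seen.

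**Figure D4:**
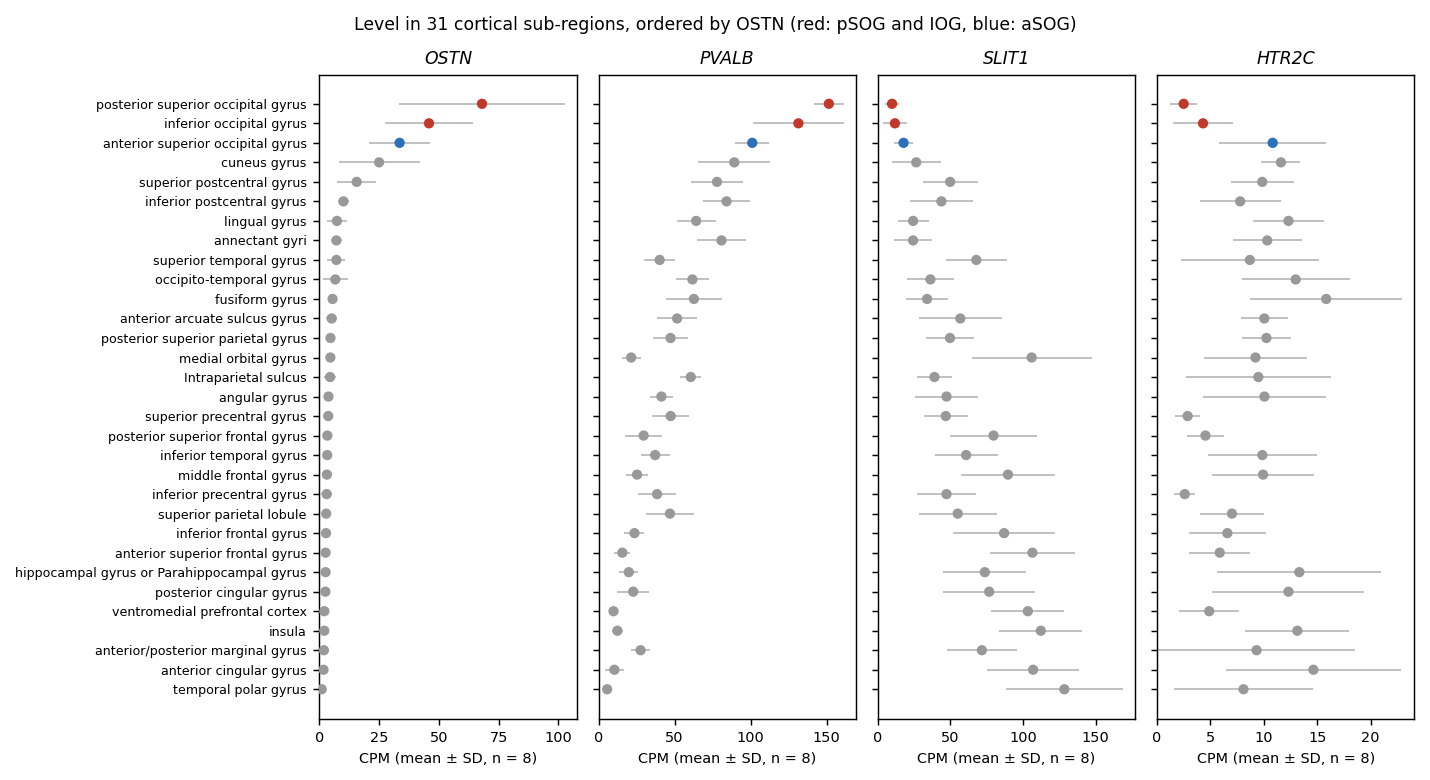
Mean level in CPM (points) ± SD over 8 animals of OSTN, PVALB, SLIT1 and HTR2C in 31 cortical sub-regions, ordered by OSTN, with pSOG and IOG in red and aSOG in blue. OSTN and PVALB are highest and SLIT1 is lowest in the 3 gyri, while HTR2C sits at rank 9 in aSOG and at ranks 28 and 31 in IOG and pSOG.

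The genes called between the gyri were also followed through the 28 sub-regions that the comparison did not use. Each gene's mean log2 CPM was set against its mean over the 28, and the median over the 113 higher and the 210 lower genes was taken. The higher genes lay most above their mean in the lingual gyrus (0.28), annectant gyri (0.28), fusiform gyrus (0.23) and cuneus gyrus (0.22), which are visual cortex or adjoin it, and in the inferior postcentral gyrus (0.19). The lower genes lay most below theirs in the inferior postcentral gyrus (-0.34), annectant gyri (-0.32), cuneus gyrus (-0.28) and lingual gyrus (-0.26). At the other end were the anterior superior frontal gyrus (-0.19 for the higher and 0.27 for the lower genes) and the insula (-0.19 and 0.23). The occipito-temporal gyrus was on that side too (-0.07 and 0.08). Over all genes tested the medians stayed between -0.02 and 0.02. The sub-regions come from the same 8 animals, so this is a description. In the 3 gyri the rule used, 54 of the 113 higher genes had pSOG first of 31 and 26 had IOG first, and 131 of the 210 lower genes had pSOG last and 26 had IOG last. Of all 15009 genes tested, 1474 had pSOG first, 1114 IOG first, 1953 pSOG last and 645 IOG last, and the choice of the called genes in part fixes their ranks.

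**Figure D5:**
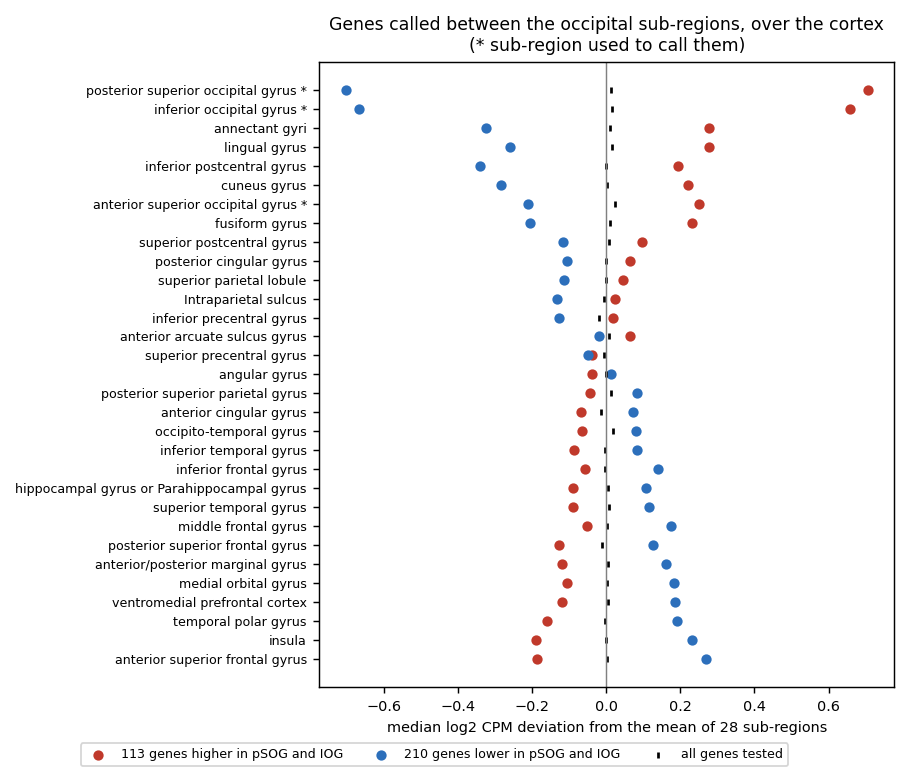
Median deviation of log2 CPM from the mean of 28 cortical sub-regions for the 113 genes higher (red) and the 210 genes lower (blue) in pSOG and IOG, and for all genes tested (black), in each of 31 sub-regions; the 3 sub-regions marked with an asterisk chose the genes. The lingual, annectant, cuneus, fusiform and inferior postcentral gyri lie on the side of pSOG and IOG, and the insula and anterior superior frontal gyrus lie farthest on the other side.

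The 5 genes whose means over the 31 sub-regions were most like those of OSTN, by Pearson's r of log2(CPM + 1), included UTS2B (0.998), HPSE (0.973), ASTN2 (0.945) and CLMP (0.941). UTS2B is the protein-coding gene next to OSTN in the RefSeq annotation of the T2T-MMU8v2.0 assembly. Its counts were 0.844 to 1.14 times those of OSTN in the 24 samples. With the strand setting of the counting not stated, the 2 genes may share reads, which was not tested. Overlap of the 2 genes on the build used for counting was not examined. The log2FC of UTS2B between the gyri was 0.75 (SE 0.20, FDR = 0.0629). HPSE (0.47, SE 0.23), CLMP (0.16, SE 0.15) and ASTN2 (0.01, SE 0.07) were not called, with FDRs of 0.227, 0.55 and 0.952.

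Whether the step between the gyri differed by age or sex was tested with interaction terms in the same fit, over 4 young and 4 mid-aged and over 4 male and 4 female animals. For age stage 0 of 15009 genes (0%) were called by edgeR and 221 had an unadjusted p under 0.05, and for sex 0 (0%) and 195. DESeq2 called 0 for each. A count of 0 with 4 animals a side does not show that the step is the same in them.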

How the data were processed

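Cortical blocks were dissected by 1 anatomist from 8 rhesus macaques, and total RNA libraries depleted of ribosomal RNA were sequenced with a strand-specific kit. Per the study's methods and the submitters' processing notes, the authors checked reads with FastQC 0.11.4. Samples whose reads were of poor quality were trimmed with Trim Galore 0.4.4. Reads were aligned with HISAT2 2.0.5 to the Mmul 8.0.1 genome and counted per Ensembl 91 gene with HTSeq 0.6.1. The deposited table holds these raw counts for 30807 genes. How HTSeq treated strand and reads on several genes is not given in the sources used here, so overlapping and antisense genes may share reads. Symbols were matched for 17572 genes, and no gene coordinates or sequences are given because no reference of this build was used. The deposited transcript assembly was not used.

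The pSOG and IOG counts of each animal were summed and compared with its aSOG counts in R 4.3.3 with edgeR 4.0.16 (TMM, filterByExpr, quasi-likelihood F test, animal as a block, Benjamini-Hochberg adjustment over all genes tested). In the sum, the gyrus with more reads weighs more. SEs come from the same fit. Samples with the same number are the same animal; the correlations of their deviations from the gyrus means were 0.112 to 0.756, except for pSOG and IOG of Rhesus 10 (-0.138). No libraries held identical counts. Named genes were OSTN, FSTL1, called members of 26 gene lists, and in each direction the 10 called genes of at least 1 CPM with a symbol, the same direction in all 8 animals and the largest log2FC, together with the 5 genes most like OSTN over the cortex. The members and lists were chosen with earlier results of these data known. Some genes that these rules name are not reported here. Scripts were tested on simulated data. Alternatives were DESeq2 1.42.0, its size factors in edgeR, the study's detection rule (a count above 1 in at least 3 samples), no block, thinning of the summed counts to the aSOG depth, 24 separate samples, an oligodendrocyte marker covariate, each animal left out and, added after seeing the data, the axis score as covariate with and without Rhesus 3. Between 8694421 and 17527846 counts per sample limit the precision for genes of few CPM.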

Additional observations from a re-analysis of the deposited data

Results flagged for a closer look

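In groups of 8 samples, a sample stood apart when its gap to the next value exceeded 0.526 of the range of the group (Dixon's test). Of 169 groups tested 15 met this, and chance gives about 1 in 20. In the pSOG sample of Rhesus 10, PLK5 had 24.7 CPM (next 12.8), TAGLN 62.5 (next 32.5), KLF2 15.4 (next 8.32) and ZIC1 9.62 (next 5.37). In the aSOG sample of Rhesus 6, RXFP1 had 76.3 CPM (next 36.8), TRABD2A 2.74 (next 1.55) and MEOX1 2.64 (next 1.73). In the IOG sample of that animal, RXFP1 had 42.3 CPM (next 19.1), HTR2C 10.9 (next 4.61) and MCHR2 3.25 (next 1.51). The remaining samples were OSTN in IOG of Rhesus 7 at 85.5 CPM (next 52.7), HTR1A in IOG of Rhesus 10 at 1.69 CPM (next 0.807), ROBO1 in IOG of Rhesus 3 at 29.7 CPM (next 19.6), GABRA5 in pSOG of Rhesus 4 at 67.5 CPM (next 41.95) and NTNG1 in pSOG of Rhesus 8, the lowest of its group, at 87.5 CPM (next 122).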

How the results depend on the processing

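For the pair of gyri against aSOG, the 323 calls became 813 with DESeq2 (358 higher and 455 lower, 315 of the 323 among them), 312 with DESeq2 size factors, 406 with the detection rule, 327 after thinning, 198 with 24 separate samples, 57 with the axis covariate, 652 with that covariate without Rhesus 3, and 0 with the oligodendrocyte covariate (313 at an unadjusted p under 0.05). The fit with 24 separate samples treats pSOG and IOG of an animal as independent beyond the animal block. With 1 animal left out the count of calls for the pair ranged from 44 to 2168. For pSOG against aSOG the 75 calls became 249 with DESeq2 and 6 to 139 with 1 animal left out (31, 29, 9, 7, 7, 139 and 6 without Rhesus 2, 4, 6, 7, 8, 10 and 11). For IOG against aSOG the 10 calls became 284 with DESeq2, 26 with the detection rule and 0 to 946 with 1 animal left out (946 without Rhesus 3, 3 without Rhesus 4, 0 without Rhesus 6, 7, 8 or 11). In the paired design, the fit without the animal block called 0 genes for the pair (1154 at an unadjusted p under 0.05), 5 for pSOG and 0 for IOG (656 at that p). Between pSOG and IOG, 0 were called by each alternative, with 82 to 1530 at that p. Of the named genes, OSTN passed with the axis covariate (1.23), with it without Rhesus 3 (1.70), and when Rhesus 2 or Rhesus 3 was left out. The directions of named genes turned under the oligodendrocyte covariate alone: ERMN 0.076, GABRB1 0.064, PLXNC1 0.060, FOXP2 0.090, EPHA4 0.25, CHRNA4 0.27 and ZIC1 -0.21, none of them called. Where a call was lost the cause was not tested, although leaving out an animal leaves fewer samples. Genes below a few CPM are limited by depth.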
